A study of Mus musculus with 6 samples.

Results

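A stretch of mouse chromosome 8, from 19600000 to 20700000 of mm10 (1.1 Mb), was examined in 4 chromatin pulldowns targeting Tug1, a long noncoding RNA. All peaks that overlapped it were taken, 792 of the 130269 peaks in the 4 lists: 157 in even replicate 1, 269 in even replicate 2, 64 in odd replicate 1 and 302 in odd replicate 2. The stretch was picked because it held many peaks in these same lists. Its peak number, density and spacing, and its shares of regions, genes and promoters with a peak, are therefore given as a description, without a test. The pulldowns came from cultured mouse kidney podocytes immortalized with a temperature-sensitive SV40 T antigen, at passage 10 to 12, first grown at 33 degrees and then differentiated for 10 days at 37 degrees. Nuclei of glutaraldehyde-crosslinked cells were used for ChIRP-seq (chromatin isolation by RNA purification), in which biotinylated oligonucleotides complementary to an RNA recover that RNA with its crosslinked DNA. The 48 probes alternate along the RNA as even and odd ones, each set served for 2 pulldowns, and all 4 libraries came from the same kind of cell with no other treatment or genotype compared. Each list was called against an input library of its own number, and the 2 inputs themselves were not analysed here. Peak lists hold no expression values, so podocyte markers could not be checked.

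Mouse chromosome 8 carries a large cluster of defensin genes, which code for small antimicrobial peptides. Alpha-defensins are made in the mouse mainly by Paneth cells of the small intestine, and beta-defensins by epithelia such as that of the epididymis. The stretch lies within this cluster and holds no gene of either family. Of the defensin genes and pseudogenes in the 5 Mb to each side, 14 beta and 4 alpha ones lie on the low-coordinate side and 10 beta and 36 alpha ones on the high-coordinate side. The stretch itself holds predicted genes and pseudogenes. Where duplicated DNA is nearly identical, a short sequencing read can match several copies equally well, so the copy a peak lies in is uncertain. Only promoter sequences of 300 bases were compared here, and how far the copies extend beyond them was not tested.

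RefSeq lists 24 genes overlapping the stretch: 5 protein-coding genes, 5 lncRNA genes, 12 pseudogenes and 2 transcribed pseudogenes. Of these, 9 have a promoter entry (250 bases before to 50 after a start site), and 3 of the 9, all protein-coding genes, share 1 promoter sequence, identical over all 300 bases. These are 4930467E23Rik (plus strand, start site at 19729576), Gm15319 (minus strand, 20363202) and Gm21119 (plus strand, 20614927). In the other gene pairs, at most 188 of 300 bases were identical in a global alignment. The median of these pairs was 179, so 188 does not stand out among them. The shared promoter is printed because it fixes the alignment of the copies used below. It is shown from 4930467E23Rik, chr8:19729326-19729625, plus strand, with the 118 bases under an even replicate 2 peak in capitals. Its closest relative among all RefSeq promoters outside the stretch is that of Gm7697, a protein-coding gene elsewhere on the chromosome, at chr8:69522872-69523171, minus strand. Over the whole entry 232 bases were identical, and the 68 unmatched bases are in capitals. Most of these capitals form 1 run at the downstream end, past the last base of the shared promoter. Thus 232 of 300 understates the likeness of the part where both entries overlap.
4930467E23Rik: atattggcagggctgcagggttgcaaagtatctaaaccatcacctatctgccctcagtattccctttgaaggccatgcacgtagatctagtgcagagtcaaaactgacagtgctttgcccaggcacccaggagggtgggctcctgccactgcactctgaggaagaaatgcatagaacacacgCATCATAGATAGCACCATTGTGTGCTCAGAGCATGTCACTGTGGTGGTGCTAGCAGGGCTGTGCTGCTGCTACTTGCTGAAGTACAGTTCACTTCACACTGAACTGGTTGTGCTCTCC
Gm7697: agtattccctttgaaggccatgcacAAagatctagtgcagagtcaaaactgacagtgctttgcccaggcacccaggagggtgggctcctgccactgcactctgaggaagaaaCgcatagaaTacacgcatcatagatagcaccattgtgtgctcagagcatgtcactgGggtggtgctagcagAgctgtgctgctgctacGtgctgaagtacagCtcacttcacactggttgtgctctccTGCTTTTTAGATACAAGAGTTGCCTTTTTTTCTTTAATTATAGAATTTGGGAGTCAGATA

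Peaks lay far closer together in the stretch than beside it. The 4 libraries had 143, 245, 58.2 and 275 peaks per Mb there (even replicates 1 and 2, odd replicates 1 and 2), against 19.4, 18.0, 13.8 and 21.3 in the 5 Mb to each side. The ratio of stretch to flanks was 7.36 in even replicate 1, 13.6 in even replicate 2, 4.22 in odd replicate 1 and 12.9 in odd replicate 2, with a mean of 9.51 ± 4.50 (SD, n = 4). Every library was denser in the stretch, and the replicate 2 lists more so than the replicate 1 lists. The low-coordinate flank held 13.8 ± 1.93 peaks per Mb (SD, n = 4) and the high-coordinate flank 22.5 ± 4.55. The stretch took up 0.386% and 1.01% of the list in even replicates 1 and 2 and 0.228% and 0.864% in odd replicates 1 and 2.

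**Figure D1:**
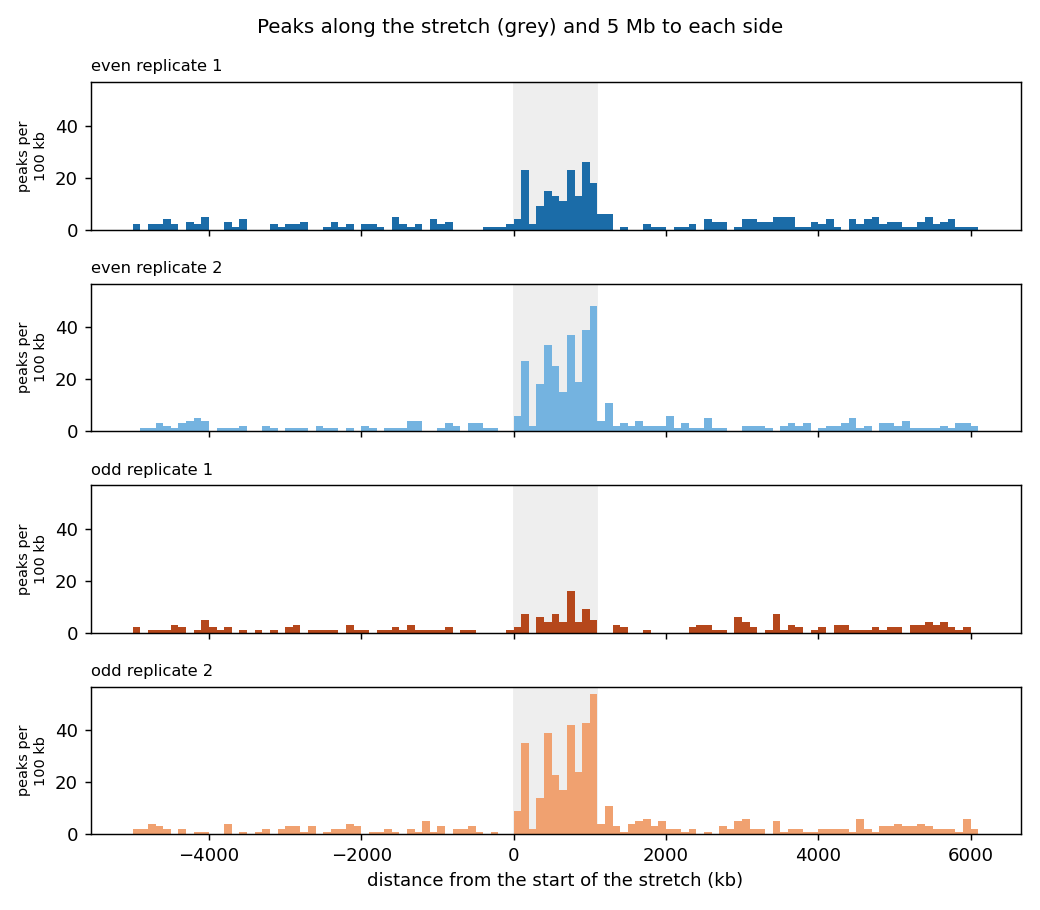
Peaks per 100 kb window (vertical axis, number) against distance from the start of the stretch (horizontal axis, kb), 1 panel per library, with the stretch in grey. Bars reach 26, 48, 16 and 54 peaks in the stretch in even replicates 1 and 2 and in odd replicates 1 and 2, and drop to 0 to 2 in its emptiest windows.

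Share of bases under peaks followed the same order. Peaks covered 7.61% and 14.0% of the stretch in even replicates 1 and 2 and 2.24% and 18.2% in odd replicates 1 and 2, against 0.787%, 0.736%, 0.382% and 0.889% of the flanks. Among all 100 kb windows of the genome, 7 of the 11 windows of the stretch were among the 20 densest (ties included) in each of 3 libraries, and 4 of 11 in odd replicate 1. Window 20600000 to 20700000 ranked first in the genome in both replicate 2 lists, with 48 and 54 peaks where the median window with any peak had 1 and 2.

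Neighbouring peaks of a library were a median of 3697 bp (even replicate 1), 2069 bp (even replicate 2), 9689 bp (odd replicate 1) and 1759 bp (odd replicate 2) apart, centre to centre. In the flanks these medians were 27463, 41641, 41057 and 27990 bp. Of the spacings in the stretch, 55.1% were under 2 kb in odd replicate 2 and 47.0% in even replicate 2, against 6.16% and 8.43% in their flanks. The replicate 1 lists had 23.7% and 14.3% such spacings. The spacing was not even along the stretch. No library had a peak centred in the 50 kb bins 19850001 to 19900000 or 20200001 to 20250000, while the fullest bin, 20650001 to 20700000, held 65 peaks over the 4 libraries.

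Peaks came in blocks divided by 3 intervals without a peak in any library. These ran from 19802963 to 19903286 (100 kb), from 20157222 to 20257804 (101 kb) and from 20442634 to 20493624 (51.0 kb). RefSeq places no gene in the first and the third, and in the second only the outermost bases of Gm40468. Whether the intervals are gaps of the assembly was not tested, since no genome sequence was used. Over the 22 bins of 50 kb the 4 libraries had a like profile, with r from 0.607 (even replicate 2 with odd replicate 1) to 0.969 (even replicate 2 with odd replicate 2). All bins share the same empty intervals, which enter these correlations.

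The upper end of the stretch did not coincide with a sharp end of the peaks in all lists. The last 50 kb inside held 10, 27, 1 and 27 peaks in even replicates 1 and 2 and in odd replicates 1 and 2, and the first 50 kb outside held 6, 4, 0 and 4. From 50 to 150 kb outside there were 6, 11, 0 and 11. At the lower end, the first 50 kb inside held 0, 1, 0 and 1 peaks and the 50 kb before it 0, 0, 1 and 0.

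In 3 of the 4 lists the peaks of the stretch were mostly low-scoring ones. In even replicate 2 the median of the authors' peak score was 129 in the stretch, 222 in the flanks and 265 in the whole list. In odd replicate 2 it was 114 in the stretch, 211 in the flanks and 221 in the whole list. In even replicate 1 it was 2199 in the stretch and 3100 in flanks and list, where 3100 is the value at which that list's scores pile up. In odd replicate 1 nearly all scores are 3100, so the score could not vary there (62 of 64 peaks of the stretch). The score did not enter the choice of the stretch, and the files do not state its scale.

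Ranked within its own list, the median stretch peak stood at percentile 4.97 in even replicate 1, 6.73 in even replicate 2 and 8.14 in odd replicate 2. Peaks below their list's median made up 60.5%, 85.9% and 84.1% of the stretch in these 3 libraries, against 32.5%, 61.1% and 51.6% of the flanks. The lowest 10% of each list held 51.6%, 58.0% and 54.0% of the stretch peaks. When only peaks at or above their list's median score were kept, the stretch held 62, 38, 62 and 48 peaks, and its density was 4.30, 4.94, 4.08 and 4.24 times that of the flanks (mean 4.39 ± 0.375, SD, n = 4). Among these peaks the ratios of the replicate 2 lists (4.94 and 4.24) overlapped those of the replicate 1 lists (4.30 and 4.08). The restriction was not alike across lists. It kept 80.5% of the even replicate 1 list and 99.9% of the odd replicate 1 list, whose medians are 3100. In the replicate 2 lists it kept only the upper part of the scores, so the ratios come from unlike selections.

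**Figure D2:**
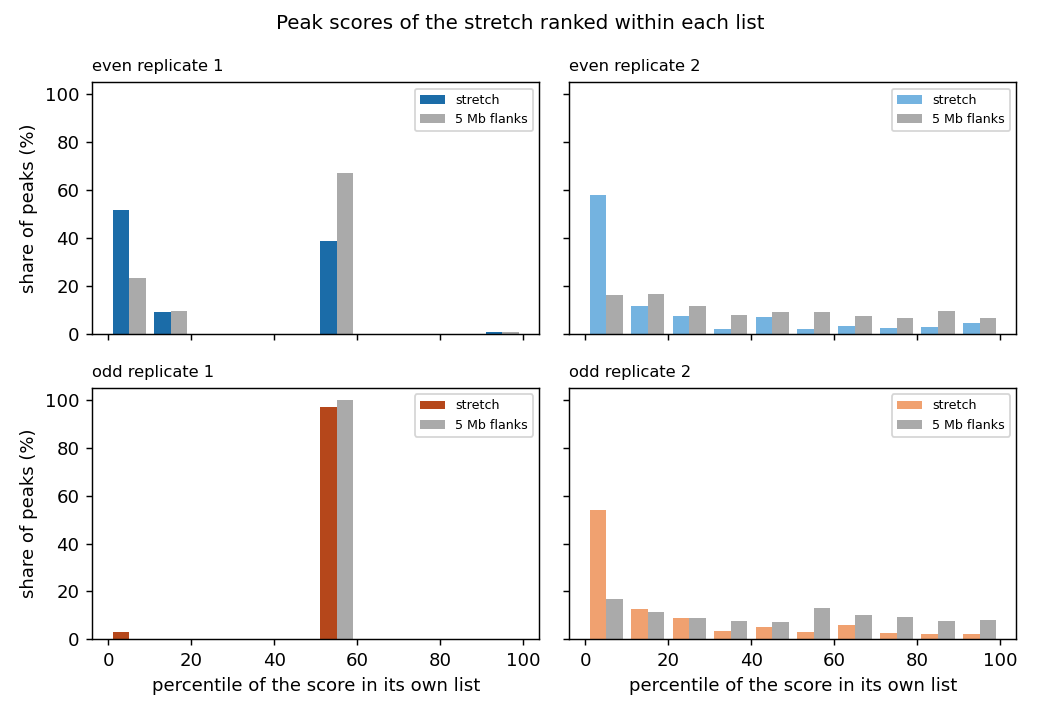
Share of peaks (vertical axis, %) in each 10% step of the score ranking of their own list (horizontal axis, percentile), for the stretch in colour and the 5 Mb flanks in grey. In even replicate 1 and both replicate 2 lists, 51.6% to 58.0% of the stretch peaks lie in the lowest step, and in odd replicate 1 almost all peaks share 1 value.

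Peaks of the stretch were also wider than those around it. Median widths were 516, 510, 379 and 564 bp in even replicates 1 and 2 and in odd replicates 1 and 2. In the flanks they were 411, 403, 248 and 402 bp. The widest, 4183 bp, belonged to odd replicate 2 at 20662278 to 20666460, beyond the end of Gm46074, with a score of 281. In even replicate 2 the widest was 1654 bp, at 20081322 to 20082975, in a place where odd replicate 2 had one of 1784 bp (20080919 to 20082702).

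The only comparison between study groups is that of the probe sets. Even libraries had a log2 ratio of stretch to flank density of 3.32 ± 0.63 (SD, n = 2) and odd libraries of 2.88 ± 1.14 (SD, n = 2), a difference of 0.44 that is smaller than the spread within either set. Within replicate 1, even exceeded odd by 0.80 on the log2 scale, and within replicate 2 by 0.08. Without odd replicate 1 the difference turned to -0.37, and without even replicate 2 to -0.0029. Between replicate numbers the difference was larger, 3.73 ± 0.05 in the replicate 2 lists and 2.48 ± 0.57 in the replicate 1 lists (SD, n = 2 each), with no overlap. The replicate number also names the input and goes with the pile-up of scores at 3100, so these cannot be told apart. Separate cultures are not named in the labels, so the spread between replicates may be technical.

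Merging overlapping peaks of the 4 lists gave 432 regions in the stretch. Peaks of all 4 libraries met in 17 of them, 3.94%, where the share over all 113114 merged regions was 0.661%. An exact binomial 95% interval was 2.31% to 6.23%. It gives counting error only and takes regions as independent, which those in copies need not be. At least 1 even and 1 odd library met in 167 of the 432, 38.7%, where the share over all merged regions was 7.05%. In the flanks 1 of 628 regions held all 4 libraries. Wider and denser peaks meet more often, and how much of these shares comes from the 14.0% and 18.2% cover of the replicate 2 lists was not tested. Without odd replicate 1, the library with the fewest peaks here, 71 of 421 regions held all the others. With a reciprocal overlap of 50%, 7 of 432 did, and among peaks at or above their list's median score 1 of 152 did. The shares over all merged regions under these other rules were not computed. Whether an excess over them remains is therefore not known.

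Regions of a single library numbered 227, 52.5% of the 432. That share was 88.2% in the flanks and 88.6% over all merged regions. Of the 227 regions, 107 were from odd replicate 2, 81 from even replicate 2, 27 from even replicate 1 and 12 from odd replicate 1. The most frequent pair was even replicate 2 with odd replicate 2 (62 regions), 1 library from each probe set, followed by the even pair (25 regions), while the odd pair had 13. Among even replicate 2 peaks of the stretch 148 of 269 (55.0%) overlapped one of odd replicate 2, against 6.67% in the flanks and 7.64% in the whole list. Among even replicate 1 peaks 102 of 157 (65.0%) overlapped one of even replicate 2, against 14.4% in the flanks. Among odd replicate 1 peaks 41 of 64 (64.1%) overlapped one of odd replicate 2, against 15.2% in the flanks, and the lists have too unequal sizes for these shares to be ranked.

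The genes of the stretch were then taken in order of kind. Every library had a peak in 9 of the 24 genes (37.5%), where 5.72% of the 49997 genes of the RefSeq table had one of every library. At least 1 library had a peak in 19 of 24 (79.2%), where the share over all genes was 39.9%. The choice of the stretch for its many peaks raises such shares by itself. The stretch genes have a median length of 6943 bp, and that of all genes is 5940 bp. In the flanks 16 of 233 genes had a peak of every library, all of them protein-coding. With 5 kb added to each side, a peak of every library was found for 20 of 24 (83.3%), where the share over all genes extended in the same way was 7.61%.

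With the 2 kinds of pseudogene kept apart, protein-coding genes held the most merged regions summed over genes, 90. Transcribed pseudogenes held 48, other pseudogenes 47 and lncRNA genes 13. Protein-coding genes are longer, with a median of 31953 bp against 2130.5 bp for pseudogenes of both kinds, and length was not allowed for. In 4930467E23Rik (gene ID 626415, 19704311 to 19753603) lay 13 and 16 peaks of even replicates 1 and 2 and 4 and 16 of odd replicates 1 and 2, which merged into 26 regions, 2 of them in all 4 libraries. In Gm21119 (gene ID 100861668, 20614404 to 20646749) lay 4, 13, 3 and 20 peaks in that order of libraries. In Gm15319 (gene ID 100040599, 20337664 to 20363202) lay 4, 13, 2 and 17, and these covered 41.6% of the gene in odd replicate 2. Thus in Gm21119 and Gm15319 both replicate 2 lists stood above both replicate 1 lists, while in 4930467E23Rik even replicate 1 came close to them. In 9530057J20Rik (gene ID 78672, 19903378 to 19935330) lay 4, 12, 2 and 11 peaks. Gm40469, the shortest of the 5 at 2882 bp, had 1 peak in each library but odd replicate 1.

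Both transcribed pseudogenes had peaks of every library. 2610005L07Rik (gene ID 381598, 20385782 to 20424814) had the most regions of any gene of the stretch, 27, from 11, 13, 3 and 17 peaks. 6820431F20Rik (gene ID 547150, 20268286 to 20297432) had 21 regions from 6, 10, 1 and 12 peaks. No region in either was found in all 4 libraries.

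Among the other pseudogenes, 3 have nearly the same length, Gm6483 (15423 bp), Gm21811 (15384 bp) and Gm21092 (15374 bp). They held 2, 3 and 4 peaks of even replicate 1, 4, 9 and 8 of even replicate 2, and 5, 7 and 9 of odd replicate 2. Odd replicate 1 had none in any of the 3. Gm20778, a pseudogene of 31689 bp, had 4, 8, 2 and 14 peaks. No peak was found in 5 pseudogenes, Gm29789, Gm7760, Gm20786, Gm20583 and Gm7807, all of them 2544 bp or shorter.

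Of the lncRNA genes, Gm40467 (3, 5, 1 and 5 peaks) and Gm40468 (2, 1, 1 and 2 peaks) had peaks of every library. The first gene, Gm35998, lies on the minus strand, starts inside the stretch and runs out of it at the low-coordinate end. It had 1 even replicate 2 peak inside the stretch, and its 1 odd replicate 1 peak lies outside and is not among the 792. The last gene, Gm46074, had 2 peaks in each replicate 2 list and none in the replicate 1 lists. Gene spans took up 31.7% of the bases of the stretch, and 38.9%, 42.8%, 31.3% and 45.7% of peak centres lay in them.

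**Figure D3:**
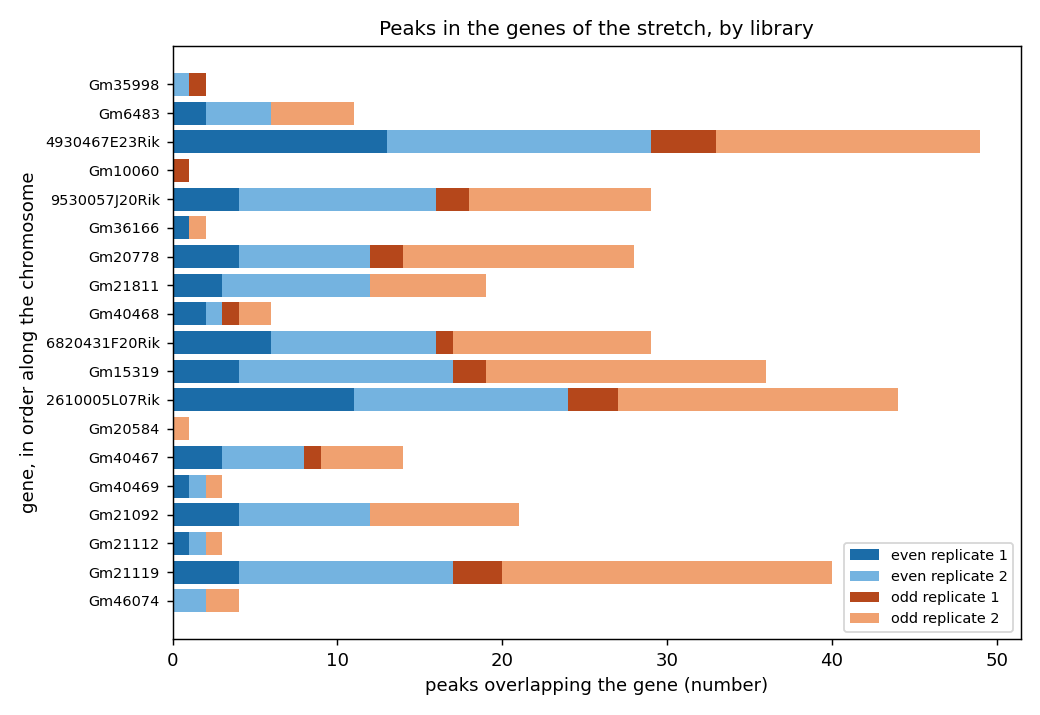
Number of peaks overlapping each of the 19 genes of the stretch that had any (horizontal axis), in order along the chromosome (vertical axis) and coloured by library. 4930467E23Rik, 2610005L07Rik and Gm21119 have the longest bars, and odd replicate 1 adds the fewest peaks in most genes.

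Fewer defensin genes beside the stretch had a peak than genes in general, 7 of 24 beta (29.2%) and 5 of 40 alpha ones (12.5%), where 39.9% of all genes had one. Of the 24 beta-defensin genes, even replicate 1 had a peak in 0, even replicate 2 in 2, odd replicate 1 in 2 and odd replicate 2 in 4. Of the 40 alpha-defensin genes and pseudogenes, the numbers were 0, 4, 0 and 1. Defb39, with a peak in both odd libraries, was the only one with peaks in more than 1 library. These genes are short, with median lengths of 3007 and 970 bp against 5940 bp for all genes, and the part of length in these shares was not tested.

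At least 1 library had a peak over the promoter entry of 8 of the 9 genes (88.9%), where the share over all 27025 genes with an entry was 5.07%. This share too is raised by the choice of the stretch. Among the 8, 4930467E23Rik and Gm21119 have the same promoter sequence and are not separate cases. Odd replicate 2 overlapped the promoters of 6 of the 9, Gm35998, 9530057J20Rik, Gm40468, Gm40467, Gm40469 and Gm46074, and even replicate 2 those of 4. Even replicate 1 overlapped that of 1, and odd replicate 1 none, and Gm15319 was the gene without any. Gm40468 was the only gene with peaks of 3 libraries in its promoter entry. There even replicate 1 had a peak over 179 of its 300 bases (score 3100), even replicate 2 over 158 (score 621), and odd replicate 2 had 2 peaks over 265 in all. The promoter is printed with the 158 bases under peaks of all 3 libraries in capitals, which lie at its upstream end. It stands at chr8:20261150-20261449, minus strand.
Gm40468: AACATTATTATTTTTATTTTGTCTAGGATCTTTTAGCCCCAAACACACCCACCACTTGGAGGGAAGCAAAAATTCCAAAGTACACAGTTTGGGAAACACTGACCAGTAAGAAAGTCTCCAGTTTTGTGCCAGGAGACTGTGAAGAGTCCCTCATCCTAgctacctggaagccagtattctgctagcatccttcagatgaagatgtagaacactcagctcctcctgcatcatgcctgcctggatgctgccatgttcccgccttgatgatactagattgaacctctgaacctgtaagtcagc

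At the shared promoter only even replicate 2 had peaks, and they fell at the same bases in 2 of the copies. In 4930467E23Rik its peak ran from -68 to 578 bp of the start site (score 117), and in Gm21119 from -68 to 474 bp (score 80.8), so that the same 118 capitals of the printed sequence were covered in both. In Gm15319 its peak ran from 256 to 578 bp (score 152) and left the promoter uncovered. The ends at 578 bp coincide in 4930467E23Rik and Gm15319. Gm7697, in the 50 kb to each side of its start site, had 8, 4, 1 and 11 peaks in even replicates 1 and 2 and in odd replicates 1 and 2, against 20 to 26, 28 to 44, 6 to 12 and 37 to 49 around the 3 start sites of the stretch. The median 100 kb window of the genome with any peak had 2, 1, 1 and 2 in that order. Gm7697 thus stood above that median in each library but odd replicate 1.

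The annotation repeated in part around these start sites. Gm6483 lies from -47310 to -31888 bp of the start site of 4930467E23Rik, and Gm21092 from -47503 to -32130 bp of that of Gm21119. Gm7760 lies from -18482 to -17828 bp of the first and Gm7807 from -18490 to -17825 bp of the start site of Gm15319, which faces the other way. Gm21112 lies in the same place before Gm21119, from -19330 to -17614 bp. Other parts differed. Before Gm15319, 2610005L07Rik lies from -61612 to -22580 bp, where the other copies have Gm6483 and Gm21092. The gene 4930467E23Rik itself spans -25265 to 24027 bp, while Gm15319 spans 0 to 25538 bp and Gm21119 spans -523 to 31822 bp. The start sites are 634 kb (4930467E23Rik and Gm15319), 252 kb (Gm15319 and Gm21119) and 885 kb (4930467E23Rik and Gm21119) apart.

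Peak positions repeated as well. When the 100 kb around the 3 start sites were laid on each other in the direction of the gene, 109 of 127 odd replicate 2 peaks (85.8%) met a peak of the same library in at least 1 other copy. So did 87 of 111 peaks of even replicate 2 (78.4%), 48 of 68 of even replicate 1 (70.6%) and 19 of 26 of odd replicate 1 (73.1%). Peaks covered 22.3% to 34.2% of these windows in odd replicate 2 and 2.55% to 5.29% in odd replicate 1. Peaks can meet at any alignment, more often at the higher cover, and how often was not computed. Counted per comparison of a peak with 1 other copy, the shares were 51.5% and 56.8% in even replicates 1 and 2 and 53.8% and 65.4% in odd replicates 1 and 2. Counted in the same way, different libraries at the same copy met at 56.3% (even replicate 2 with odd replicate 2), 47.5% (the even pair), 42.1% (even replicate 1 with odd replicate 2) and 16.1% to 29.8% in the 3 pairs with odd replicate 1, whose few peaks limit what its partners can meet.

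Peak ends set the copies and the libraries further apart. An end within 10 bp of an end of the same kind was found between copies of the same library in 19.1% of comparisons in even replicate 1 (26 of 136), 21.6% in even replicate 2 (48 of 222), 26.9% in odd replicate 1 (14 of 52) and 13.4% in odd replicate 2 (34 of 254). Between libraries at the same copy the share ran from 0% (even replicate 1 with odd replicate 2, 0 of 195) to 8.51% (even replicate 1 with odd replicate 1, 8 of 94). Both ends within 10 bp were found in 8, 10, 10 and 14 comparisons between copies of even replicates 1 and 2 and of odd replicates 1 and 2, and in 0 comparisons between libraries. These counts have no test. The copies may share reads, and how reads that match several copies were placed is not given in the sources used here.

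Single places show the repetition. In even replicate 1 a peak lay from -5773 to -5365 bp of all 3 start sites, to the base, with scores of 832 (4930467E23Rik), 1004 (Gm15319) and 1356 (Gm21119). In even replicate 2 a peak ran from 2593 to 3212 bp in 4930467E23Rik and in Gm15319, with scores of 170 and 169, and from 2593 to 3047 bp in Gm21119, with a score of 137. In odd replicate 1 a peak lay from -16358 to -15900 bp in both Gm15319 and Gm21119 and from -16335 to -15914 bp in 4930467E23Rik. A further odd replicate 1 peak began at 7389 bp in 4930467E23Rik and 7383 bp in Gm15319 but at 7609 bp in Gm21119, so the third copy was out of step with the others there. Farther along, odd replicate 1 peaks began at 18979 and 28932 bp in Gm15319 and at 19209 and 29145 bp in Gm21119. In even replicate 2, starts at 12434 and 14896 bp in Gm15319 stood against 12663 and 15130 bp in Gm21119. Not every place differed so, as with odd replicate 2 at 7385 and 7318 bp. No offset was allowed for, so counts of matching ends and places may understate the repetition.

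One place, from -17273 to -15404 bp, had peaks of every library in every copy, all 12 combinations. It was formed by chaining peaks that overlap in any library or copy, so they need not all overlap one another. Merged regions of all 4 libraries lay there in 4930467E23Rik and in Gm15319, while in Gm21119 the even replicate 2 peak (-16978 to -16475 bp) did not overlap the odd replicate 2 peak (-16402 to -15663 bp). The 3 highest-scoring odd replicate 2 peaks of the stretch were those at this place in 4930467E23Rik, Gm21119 and Gm15319, with scores of 1845, 1172 and 793. Odd replicate 1 scored 3100 in all 3 copies. Even replicate 1 had a peak of 3100 in each copy and a further one of 2144 in Gm15319 and of 1544 in Gm21119. Even replicate 2 scored 69.7 in 4930467E23Rik, 185 and 53.9 in Gm15319 and 115 in Gm21119, all below the median of its list.

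**Figure D4:**
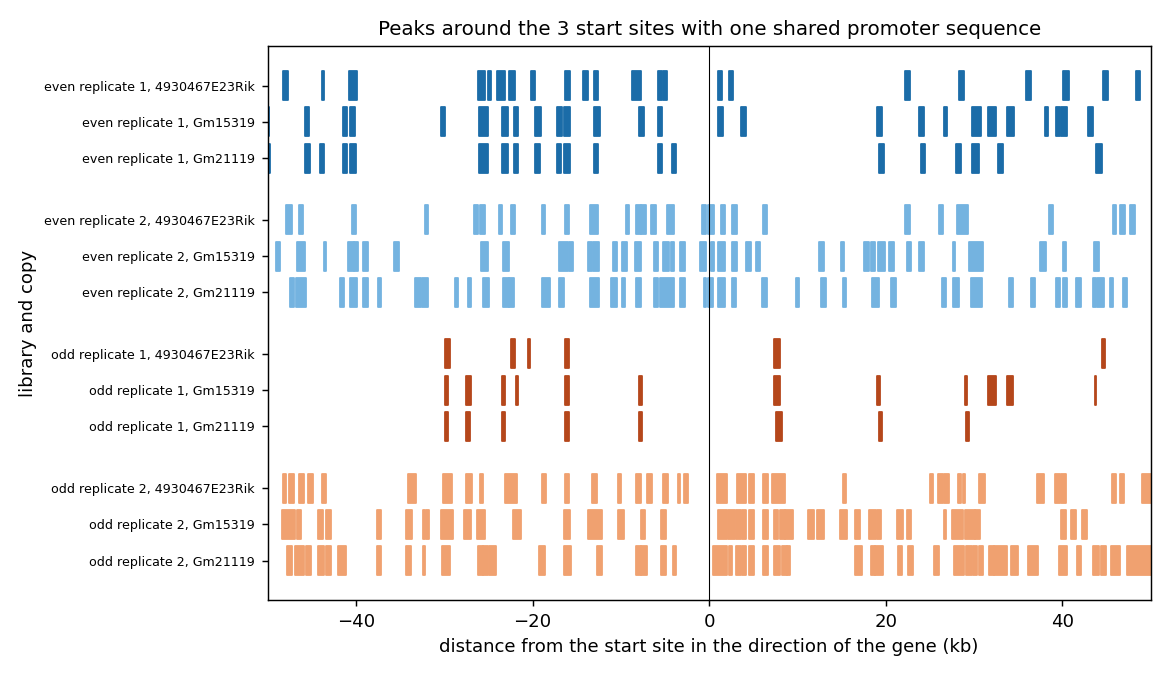
Peaks of each library (rows, grouped by library in colour and by copy) against distance from the start site in the direction of the gene (horizontal axis, kb) for the 3 genes with the shared promoter; each block is 1 peak drawn to scale. Some blocks stand at the same distance in all 3 rows of a library, such as the even replicate 1 peak from -5773 to -5365 bp, and others, 20 of 40 places in even replicate 1, in 1 row only.

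One copy was then slid along another. Bins of 100 bp covered by peaks correlated between copies of the same library with r from 0.191 to 0.635 when start sites were aligned. Shifts of 2 kb or more, up to 10 kb either way, gave medians from -0.034 to 0.026 and never above 0.219. In 11 of the 12 profiles the highest r of any shift lay within 500 bp of the start-site alignment, the other being even replicate 2 between 4930467E23Rik and Gm15319, highest at -1400 bp. Gm15319 and Gm21119 were most alike in every library, with r of 0.532 and 0.413 in even replicates 1 and 2 and 0.635 and 0.363 in odd replicates 1 and 2. Bins of a library share its reads, and r describes 1001 bins of which neighbours are not independent.

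**Figure D5:**
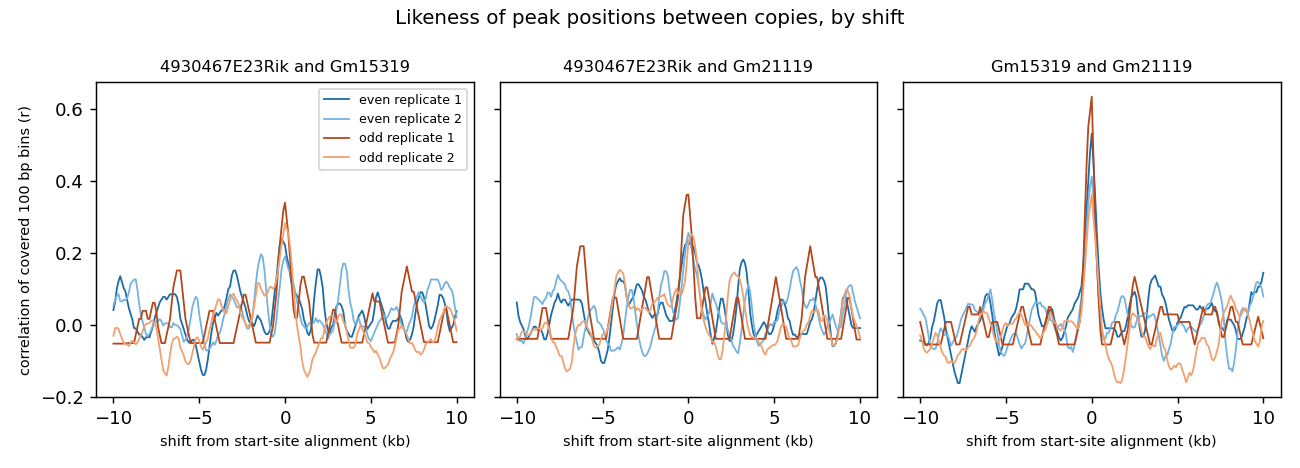
Correlation of peak-covered 100 bp bins between pairs of copies (vertical axis, r) against the shift from the alignment of their start sites (horizontal axis, kb), 1 line per library. Lines stand at 0.191 to 0.635 at shift 0 and between -0.161 and 0.219 at shifts of more than 500 bp.

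A part of the places was still seen in a single copy, with no allowance for the offset of Gm21119. Of 54 places of odd replicate 2 around the start sites, 16 had a peak in all 3 copies, 20 in 2 and 18 in 1. Even replicate 2 had 58 places with 14 in all 3 copies and 24 in 1, and even replicate 1 had 40 with 7 in all 3 and 20 in 1. Odd replicate 1 had 15 with 3 in all 3 and 7 in 1.

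Another repeated place lay beside pseudogenes of 105 bp. There are 3 of these in the stretch, Gm10060 (19784746 to 19784850), Gm20583 (20297324 to 20297428) and Gm20584 (20424592 to 20424696), and each had a region of all 4 libraries beginning 2892, 2890 and 2901 bp away. In even replicate 2 the peaks ran from 3101 to 3527 bp, from 3095 to 3936 bp and from 3089 to 3528 bp from these pseudogenes, with scores of 1145, 1693 and 1357, which with a peak of 1219 at 20546794 to 20547293 were its 4 highest of the stretch. Odd replicate 1 had peaks from 3117 to 3520 bp of Gm10060 and from 3115 to 3528 bp of Gm20584, but from 3771 to 4514 bp of Gm20583. Odd replicate 2 scored 88.2 beside Gm10060 (2892 to 3703 bp) and 136 beside Gm20584 (2901 to 3708 bp), both below the median of its list. Its peak of 299 beside Gm20583 was above that median but lay farther off, from 3862 to 4825 bp. None of these odd replicate 2 peaks was among its 8 highest of the stretch. Only 1 peak per library and region, a highest-scoring one, is given here. The region beside Gm20583 held 6 peaks, so a peak of a library at the matching distance may be left out. The pseudogenes were singled out after these values were seen.

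Regions of all 4 libraries were 639 to 2305 bp wide, with a median of 1190 bp, against 587 bp for all regions of the stretch. Of the 17, 8 overlapped a gene and 9 did not. Genes that held them were 4930467E23Rik and Gm21119 with 2 each, and 9530057J20Rik, Gm20778, Gm40468 and Gm15319 with 1 each. The highest mean percentile belonged to the region at 20300318 to 20302253, which lies 2886 bp from 6820431F20Rik and beside Gm20583. The next were at 20378606 to 20380475 near Gm7807, 20546616 to 20547429 near Gm40469 and 20427597 to 20428404 near 2610005L07Rik. The widest, 19705560 to 19707864, lay in 4930467E23Rik, with scores of 3100, 88.4, 3100 and 383 in even replicates 1 and 2 and in odd replicates 1 and 2. In even replicate 2 the 17 regions had a median score of 255 and 8 exceeded the median of the list. In odd replicate 2 the median was 147 and 5 exceeded it.

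Some of these regions carried peaks of equal width. In odd replicate 2 a peak of 856 bp began at 19918770 in 9530057J20Rik, at 20056227 in Gm20778 and at 20633760 in Gm21119, with scores of 202, 96.5 and 128. In even replicate 2 a peak of 588 bp began at 19919291 in 9530057J20Rik, at 20056748 in Gm20778 and at 20499503 outside genes, with scores of 170, 122 and 62.7. In odd replicate 1 a peak of 382 bp began at 20056603 in Gm20778 and at 20634136 in Gm21119. Thus peaks of equal width within a library were also found in 9530057J20Rik and Gm20778, which are not among the 3 genes with the shared promoter. Equal widths were looked for after the values were seen.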

How the data were processed

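Peaks of 4 pulldown libraries were analysed. The submitters' processing notes name Bowtie2 2.1.0 and the build mm10; each pulldown was called against 1 input, per the file names, without pooling. The peak names start with MACS. Not given in the sources used here are its version and threshold, duplicate handling and the placement of reads with several matches. The score of each peak is deposited by the authors on an unstated scale, so it was used as a rank within its list. Peak lists hold no read counts: depth is unknown.

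Positions are 1-based. Peaks overlapping the stretch by at least 1 bp were counted, and peaks overlapping by 1 bp were merged across libraries. Flanks were 5 Mb to each side. Genes and promoter sequences came from RefSeq tables of GRCm38.p6, the assembly of mm10. Copies were aligned at the start sites with identical promoters, 50 kb to each side. A planned exact permutation test of the probe sets is not reported, since the stretch was chosen on the measure it tests and 2 libraries against 2 cannot reach p under 0.05. Same-numbered libraries share an input, per the file names, so numbers pair the libraries, and their deviations over 2662 windows of 1 Mb correlated at r = 0.196. Named were all protein-coding genes, the 12 genes with most regions, genes with regions of all 4 libraries, the first and last gene, and up to 12 of those regions. The stretch, lists and rules were chosen with earlier results of these data known. The copy alignment was added after seeing the data. Counting and merging were tested on simulated data. Alternatives are given in the closing section. Python 3.11.15, numpy 2.4.6, pandas 2.3.3 and matplotlib 3.10.9 were used.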

Additional observations from a re-analysis of the deposited data

How the results depend on the processing

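Leaving aside the even minus odd difference, 59 values were recalculated. Of these, 52 stayed within the spread between libraries or, for shares, the binomial interval, and 7 moved. The interval takes regions or genes as independent, which those in copies need not be. A mean over libraries cannot leave the spread between libraries when 1 library is left out. Such alternatives could therefore only count as unmoved. Restriction to peaks at or above their list's median score kept unlike shares of the lists, as given above. It gave a density ratio of 4.39, a median spacing of 12491 bp and a median percentile of 74.6 in the replicate 2 lists. That percentile was fixed by the restriction itself. The share of regions in all 4 libraries was then 0.658%. That share was 1.62% with a reciprocal overlap of 50% and 4.78% to 16.9% with 1 library left out, highest without odd replicate 1. Shares over all merged regions were not computed under these rules. Genes with a peak of every library were 83.3% when extended by 5 kb, where the share over all genes was 7.61%. The even minus odd difference kept its direction in 10 of 12 alternatives and ran from -0.37 to 1.25 with 1 library left out, being -0.37 without odd replicate 1 and -0.0029 without even replicate 2. With the replicate number as a block it was 0.44, as without it, by construction. The cause of these changes was not tested. Omission of the 300 kb next to the stretch from the flanks was chosen after seeing the data. With no read counts, a place without a peak cannot be told from one too shallow to be called.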
